A study of Mus musculus with 4 samples.

Results

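Keratins of renal tubule and urothelium were followed in the mouse kidney medulla, as 10 genes picked by symbol from the 27179 Entrez genes of the deposited table. The 10 are the simple-epithelial keratins Krt7, Krt8, Krt18, Krt19, Krt20 and Krt23, and the basal or stratified keratins Krt5, Krt13, Krt14 and Krt15. All 10 had a row in the table, and 9 reached the mean of 10 needed for testing; Krt13 did not. The samples were 4 libraries of medullary RNA taken at postnatal day 14 from mice of mixed C57BL/6 strain. The 2 control libraries carry the genotype label wild type control (Actr3 WT). The other 2 are labelled Actr3 KO, with the genotype Actr3-fl/fl*Cdh16-Cre: a floxed Actr3, the gene of the Arp3 subunit of the actin-branching Arp2/3 complex, with a Cre under the Cdh16 promoter (Cdh16 is a cadherin found in renal tubule cells). The tissue holds every cell type of the medulla, not only the cells with Cre, and the labels do not say whether the controls were littermates or carried floxed alleles.

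Keratins are the intermediate filament proteins of epithelia, and a filament is built from equal parts of an acidic type I chain and a basic type II chain. KRT8 (type II) and KRT18 (type I) are the pair of simple epithelia such as renal tubules, joined in ducts by KRT7 and KRT19. KRT5 (type II) with KRT14 or KRT15 (type I) marks the basal layer of stratified epithelia, which in the kidney means the urothelium lining the renal pelvis, while KRT13 belongs to its layers above the base and KRT20 to its surface umbrella cells. KRT20 is also known as a keratin of injured tubules.

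The labels were first set against the targeted gene. Actr3 had normalized read counts (reads divided by 1 size factor per library) of 8065 and 7275 in the libraries labelled WT and of 12587 and 12480 in those labelled KO. It was thus higher where it should be deleted, and a count over the whole gene cannot show a lost exon, so the names used here are WT-labelled and KO-labelled, and each direction below rests on these labels. The libraries held 36482238 to 40784436 recovered reads and 18972 to 19249 detected genes. The medullary segment genes Slc12a1, Umod and Aqp2 were abundant in all 4, at 4576 or more, but not steady. Slc12a1 was at 239881 and 241824 (WT-labelled) against 39222 and 28751, and Aqp2 at 27437 and 34871 against 6961 and 4576. Cdh16, the gene whose promoter drives the Cre, was lower as well, at 84350 and 99754 against 41457 and 37685. RNA came from 2 animals of each genotype per the labels' protocol, which does not say which library is which animal, so p-values measure the spread between these libraries.

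For 4 members on which the results turn, the sequence before the annotated start is shown: Krt20, the member with the steepest rise, the pair Krt8 and Krt18, which rose together, and Krt5, which fell. Each line gives the 250 bases before the start site of the RefSeq model (GRCm38.p6), 5′ to 3′ on the gene's strand, and capitals mark matches to any of the 5 motifs searched.
Krt20 (chr11:99438154-99438403, minus strand): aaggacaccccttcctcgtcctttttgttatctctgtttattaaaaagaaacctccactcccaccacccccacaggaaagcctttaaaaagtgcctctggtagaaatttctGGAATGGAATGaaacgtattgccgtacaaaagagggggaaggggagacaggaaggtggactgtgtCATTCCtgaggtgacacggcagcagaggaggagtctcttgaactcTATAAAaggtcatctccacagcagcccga
Krt8 (chr15:102004343-102004592, minus strand): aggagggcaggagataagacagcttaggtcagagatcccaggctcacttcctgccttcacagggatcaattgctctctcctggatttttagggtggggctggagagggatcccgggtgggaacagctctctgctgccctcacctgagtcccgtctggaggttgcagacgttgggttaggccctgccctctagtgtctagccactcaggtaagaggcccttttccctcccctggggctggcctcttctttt
Krt18 (chr15:102027966-102028215, plus strand): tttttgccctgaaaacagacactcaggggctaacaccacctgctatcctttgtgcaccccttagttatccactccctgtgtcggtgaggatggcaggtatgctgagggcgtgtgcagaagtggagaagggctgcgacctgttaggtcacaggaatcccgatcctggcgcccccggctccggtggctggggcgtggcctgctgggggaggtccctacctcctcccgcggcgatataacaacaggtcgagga
Krt5 (chr15:101712906-101713155, minus strand): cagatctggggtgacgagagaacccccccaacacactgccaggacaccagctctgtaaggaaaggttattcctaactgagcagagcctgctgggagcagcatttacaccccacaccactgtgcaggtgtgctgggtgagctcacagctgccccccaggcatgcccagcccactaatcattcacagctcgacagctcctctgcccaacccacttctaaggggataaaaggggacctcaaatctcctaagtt

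Each motif was searched on both strands. The AP-1 motif was TGANTCA, the site of Fos and Jun dimers. The motif of the grainyhead factors of epithelia was AACNGGTT. Core promoter elements were the TATA box, read as TATAAA, and the GC box of Sp1-type factors, read as GGGCGG. The motif of TEAD factors, partners of YAP, was GGAATG. Krt20 held a TATA box match beginning 29 bases before its start, and TEAD matches beginning 139, 134 and 74 bases before it, of which the 139 and 134 matches overlap by 1 base. A TEAD match was present in 12.6% of 32851 promoters of this length and at least 3 matches in 0.0913% (30 promoters); a TATA box match was present in 12.4%. The windows of Krt8, Krt18, Krt5 and Krt23 held none of the 5 motifs. Krt7, whose count did not pass the test, held 4 GC box matches, a motif found in 32.7% of promoters and at least 3 times in 8.47%. AP-1 was found in 6.75% and grainyhead in 1.79% of promoters; among the members' windows at the annotated start, AP-1 occurred in Krt13 and grainyhead in none. Of the 10 members 8 had an entry, without Krt15 and Krt19, and 7 of these had 1 at the annotated start of the gene, Krt14 being the exception. The Krt14 window, before another start at position 100206030 of chromosome 11, held 1 TEAD match, beginning 66 bases before that start. A match is a string of letters and not evidence of binding.

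Simple-epithelial and basal keratins moved in opposite directions. Of the 6 simple-epithelial keratins 4 rose in the KO-labelled libraries, 0 fell and 2 missed the threshold (limma, adjusted p under 0.05 over 16253 genes), where 26.3% of all tested genes were called higher. Of the 3 tested basal keratins all 3 fell, where 24.9% of all tested genes were called lower. The tests on recovered reads called 4 and 3 with edgeR, against 25.8% higher and 25.3% lower among all tested genes, and 5 and 3 with DESeq2, against 24.6% and 23.5%. Subtracting WT-labelled from KO-labelled values of log2(count + 1), the median difference was 1.36 over the simple-epithelial keratins and -3.27 over the tested basal ones, against 0.00291 over all tested genes. In medullary RNA from all cells, fewer cells of a type and less RNA per cell cannot be told apart. The median log2(count + 1) of the 6 simple-epithelial keratins was 10.91 and 10.84 in the WT-labelled libraries and 12.63 and 12.37 in the KO-labelled ones, while that of Krt5, Krt14 and Krt15 went from 8.85 and 8.48 to 5.31 and 4.82.

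**Figure D1:**
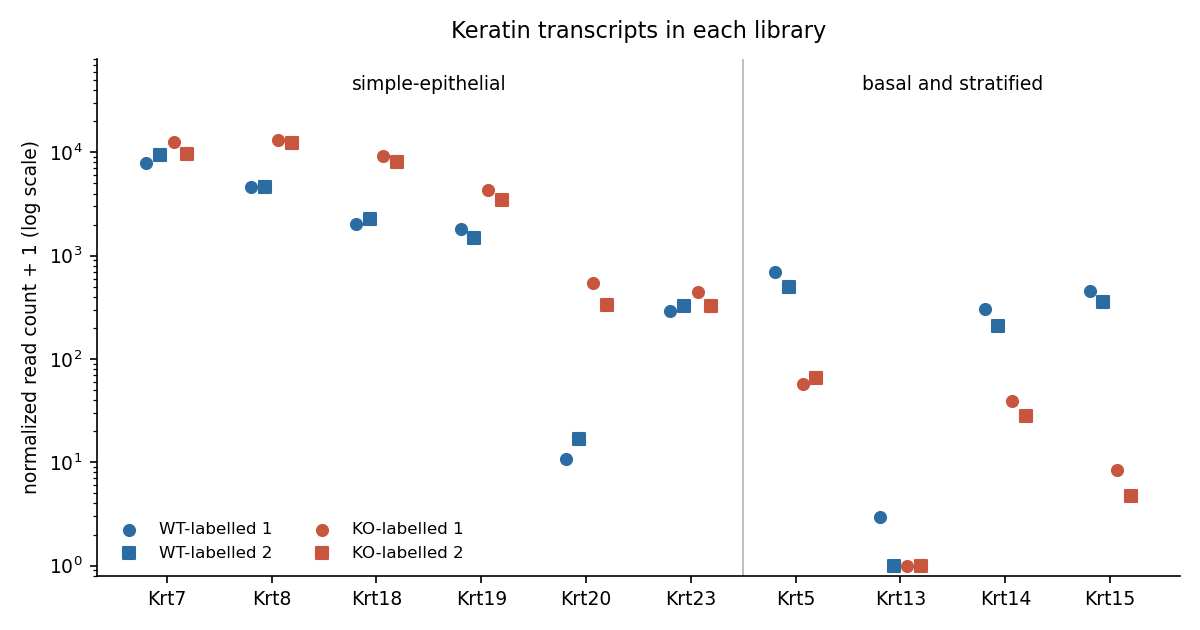
Normalized read count plus 1 on a log axis for each of the 10 keratins, 1 point per library (blue WT-labelled, red KO-labelled; circle replicate 1, square replicate 2). Krt20 goes from 9.85 and 15.9 to 547 and 334, and Krt15 from 459 and 357 to 7.51 and 3.77.

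Krt8, the type II chain of the simple-epithelial pair (chromosome 15, 101996711 to 102004342, GRCm38), was at normalized counts of 4611 and 4574 under the WT label, and at 13277 and 12315 under the KO label. The groups lay far apart, and the replicates within each close together. The mean rose from 4592 ± 25.6 to 12796 ± 681 (SD, n = 2), a 2.79-fold rise, or 1.48 on the log2 scale (SE 0.077; limma adjusted p = 2.11e-05). Its type I partner Krt18 lies 23.9 kb away, at 102028216 to 102032026 on the same chromosome. Its counts were 2047 and 2262 (WT-labelled) and 9317 and 8050 (KO-labelled), again with no overlap. It rose 4.03-fold, or 2.01 on the log2 scale (SE 0.099; limma adjusted p = 1.71e-05). Separate ranges were common, with 78.5% of all tested genes showing no overlap between groups (39.8% with the KO-labelled values above and 38.7% below).

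Krt19, a type I keratin of ducts that lacks the usual tail domain (chromosome 11, 100140810 to 100145926), stood at 1809 and 1474 with the WT label and at 4337 and 3480 with the KO label. The lower KO-labelled value was still above both WT-labelled ones. The rise was 2.38-fold, or 1.25 on the log2 scale (SE 0.14; limma adjusted p = 0.000425).

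Krt20, the umbrella cell and injury keratin (type I, chromosome 11, 99428385 to 99438153), had WT-labelled counts of only 9.85 and 15.9, from 10 and 16 reads. In the KO-labelled libraries it stood at 547 and 334. The groups were separate, though the KO-labelled values differed from each other by a log2 of 0.71. The mean went from 12.9 ± 4.28 to 440 ± 151 (SD, n = 2), a 34.2-fold rise, or 4.98 on the log2 scale (SE 0.35; limma adjusted p = 6.28e-05), the largest rise among the members. Even so its level per kb of transcript, 284 and 173, stayed well below the 7356 and 6822 of Krt8 in the same libraries.

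Krt7 and Krt23 did not pass the threshold. Krt7, a type II keratin of collecting ducts and urothelium (chromosome 15, 101412403 to 101427806), had WT-labelled counts of 7924 and 9444 and KO-labelled counts of 12474 and 9597. The lower KO-labelled value barely exceeded the higher WT-labelled one. The log2 difference was 0.34 (95% interval 0.00 to 0.67, limma adjusted p = 0.0835), and it was 0.53 (adjusted p = 0.0152) without KO replicate 2. DESeq2 on the recovered reads also called it higher (adjusted p = 0.0457). Krt23, a type I keratin (chromosome 11, 99477973 to 99493120), had counts of 289 and 327 against 449 and 322, so the groups overlapped. Its log2 difference was 0.31 (95% interval -0.16 to 0.77, limma adjusted p = 0.227). All 6 simple-epithelial keratins were higher in KO replicate 1 than in KO replicate 2, by log2 differences of 0.11 for Krt8 to 0.71 for Krt20, whereas 2 of 6 were higher in WT replicate 1. The share of all tested genes with this direction was not counted, so it is not read as particular to these keratins.

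Krt5, the type II keratin of basal cells (chromosome 15, 101707069 to 101712905), went from WT-labelled counts of 696 and 496 to KO-labelled ones of 55.8 and 65.0. Every KO-labelled value was far below the WT-labelled ones. The mean fell 9.87-fold, or -3.27 on the log2 scale (SE 0.22; limma adjusted p = 5.8e-05). Krt14, its usual type I partner (chromosome 11, 100203162 to 100207510), had counts of 302 and 206 against 38.6 and 27.3. It fell 7.71-fold, or -2.90 on the log2 scale (SE 0.30; limma adjusted p = 0.000299).

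Krt15, the other type I keratin of basal cells (chromosome 11, 100131759 to 100135949), fell furthest. Its normalized counts were 459 and 357 in the WT-labelled libraries and 7.51 and 3.77 in the KO-labelled ones, where they rest on 7 and 4 reads. The mean fell 72.3-fold, from 408 ± 72.2 to 5.64 ± 2.64 (SD, n = 2), or -5.99 on the log2 scale (SE 0.37; limma adjusted p = 3.75e-05). Krt5, Krt14 and Krt15 were each higher in WT replicate 1 than in WT replicate 2, by log2 differences of 0.49, 0.55 and 0.36, all smaller than the differences between the groups.

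Krt13, the type I keratin of stratified mucosa and intermediate urothelial cells (chromosome 11, 100117327 to 100121566), gave no comparison. It had 2 reads in WT replicate 1 and 0 in the 3 other libraries. A count of 0 allows up to 3 reads, a normalized count of 2.83 to 3.22 depending on the library, so both groups were at or under what this depth can show.

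**Figure D2:**
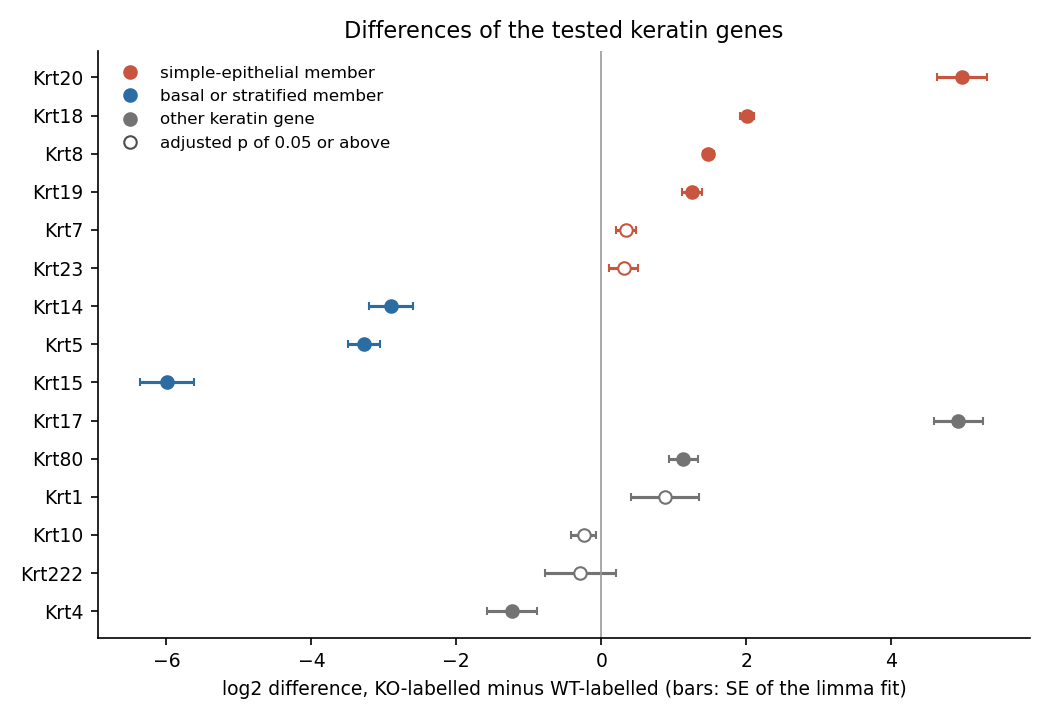
Log2 difference, KO-labelled minus WT-labelled, of each tested keratin gene with the SE of the limma fit as bars; filled points passed an adjusted p of 0.05. The simple-epithelial members lie between 0.31 and 4.98 and the basal ones between -5.99 and -2.90, with Krt17 at 4.93 among the other keratin genes.

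Of the 44 other keratin genes in the table, 15 had no reads in any library and 23 had reads but a mean under 10. Of the 6 tested, 2 rose, 1 fell and 3 were not called, counts near the 26.3% and 24.9% of all tested genes called higher and lower. Krt17, a type I keratin that stratified epithelia induce in wounds and stress, had WT-labelled counts of 30.5 and 15.9 and KO-labelled ones of 825 and 596. It rose 30.6-fold, or 4.93 on the log2 scale (SE 0.34; limma adjusted p = 5.65e-05), opposite in direction to the closely related Krt14. Krt16, close in sequence to both, was at 11.8 or less in every library. How reads that fit several of these related genes were counted is not given in the sources used here, so their separate counts are uncertain to that extent. Krt80, a type II keratin of many epithelia, had counts of 233 and 336 against 650 and 584 and rose by a log2 difference of 1.13 (limma adjusted p = 0.00297). Krt4, the type II partner of KRT13 in stratified mucosa, fell from 68.9 and 46.7 to 20.4 and 27.3, a log2 difference of -1.23 (limma adjusted p = 0.0245), and that call was lost with DESeq2 (adjusted p = 0.0598) and without WT replicate 1 (0.131) or KO replicate 1 (0.0873). The epidermal keratins Krt1 and Krt10 and the keratin-like Krt222 had log2 differences of 0.88, -0.24 and -0.29.

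Members that are neighbours on a chromosome did not always move together. Krt15 and Krt19 lie 4.86 kb apart with no other keratin gene between them, and their log2 differences were -5.99 and 1.25. Krt14 and Krt17, with Krt16 between them, had -2.90 and 4.93. Krt8 and Krt18, adjacent on chromosome 15, both rose. Krt20 rose by 4.98 while the keratin gene on one side, Krt23, 39.8 kb away, had 0.31. On its other side and nearer, at 5.79 kb, Krt12 was too low to test. Its counts were 0.985 and 1.99 (WT-labelled) against 22.5 and 10.4, the same direction as Krt20. Krt42, 1.85 kb from Krt17, was also too low to test, at 6.44 and 2.83 in the KO-labelled libraries and without reads in the WT-labelled ones.

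**Figure D3:**
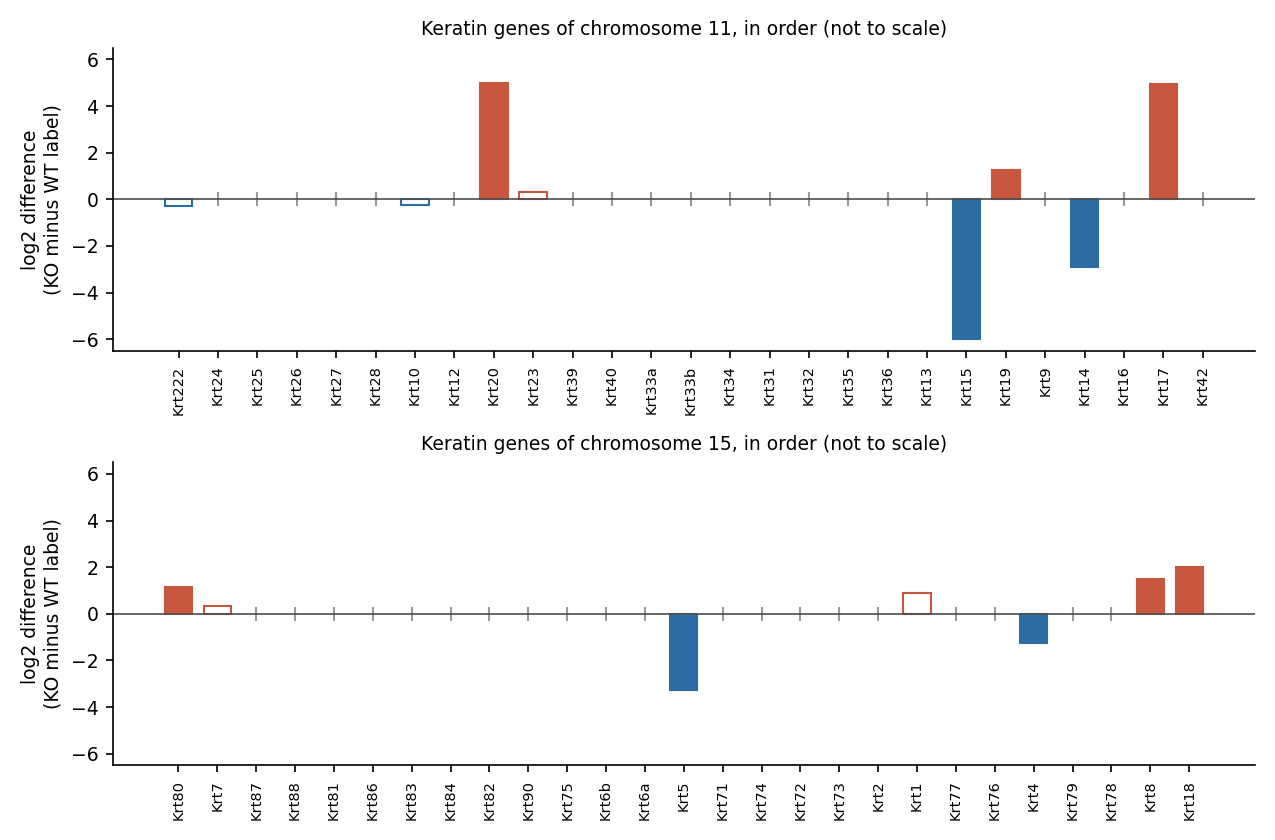
Log2 difference, KO-labelled minus WT-labelled, of the keratin genes of chromosomes 11 and 15 in their chromosomal order, spaced evenly and not to scale; filled bars passed an adjusted p of 0.05 and grey ticks are genes that were not tested. Krt15 at -5.99 and Krt19 at 1.25 stand side by side.

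Per kb of transcript, the members' levels in both WT-labelled libraries ran from Krt7 through Krt8, Krt18, Krt19 and Krt5 to Krt15 and Krt23, then Krt14, Krt20 and Krt13. Krt15 and Krt23 changed places between the libraries (270 and 210 against 186 and 211), and the ranges of Krt5 and Krt15 overlapped. Krt18, at 1462 and 1616, was above Krt19, at 1309 and 1067. In the KO-labelled libraries the range of Krt7 (7865 and 6051) overlapped those of Krt8 (7356 and 6822) and of Krt18 (6655 and 5750), while both Krt8 values were above both of Krt18. They were followed by Krt19 (3139 and 2518). Krt20 (284 and 173) and Krt23 (290 and 208) overlapped next, above Krt5 (25.4 and 29.6), Krt14 (23.3 and 16.5) and Krt15 (4.42 and 2.22).

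Summed over all keratin genes, the level per kb was 11560 and 12244 with the WT label, against 26559 and 22305. Krt7 made up 43.2% and 48.6% of that pool in the WT-labelled libraries and 29.6% and 27.1% in the KO-labelled ones. Krt18 went from 12.6% and 13.2% to 25.1% and 25.8%, and Krt8 from 22.1% and 20.7% to 27.7% and 30.6%. The share of Krt7 was thus lower with no called change in its count. The basal and stratified members together went from 6.66% and 4.57% to 0.20% and 0.216%. Krt17 and Krt20, each at most 0.170% in the WT-labelled libraries, reached 2.00% and 1.72% and 1.07% and 0.776%.

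**Figure D4:**
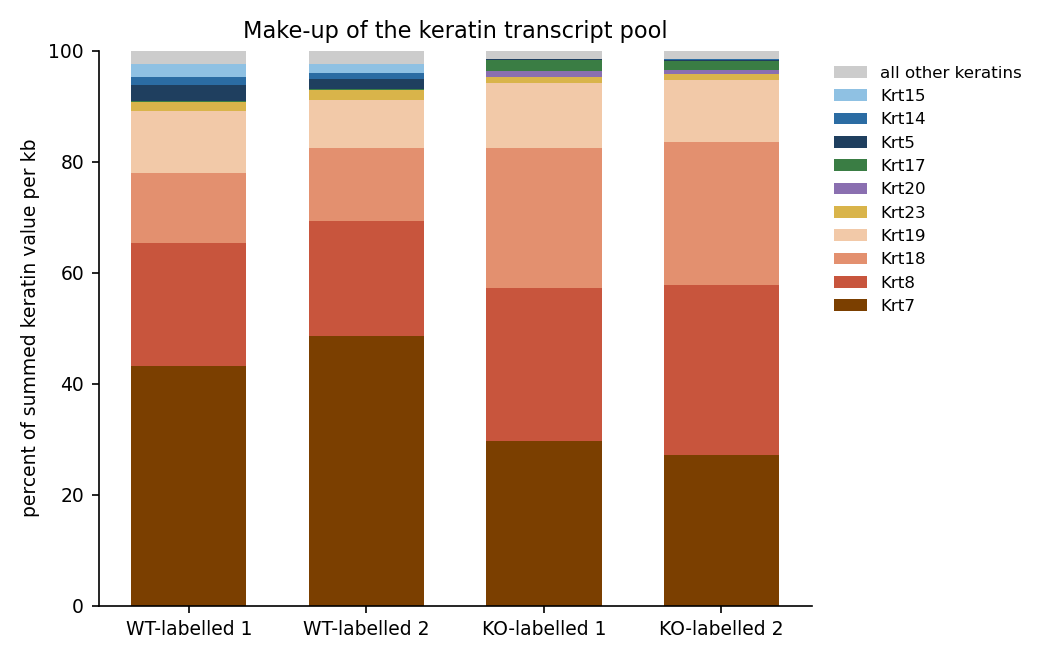
Share of each keratin in the summed keratin level per kb of transcript, in percent, 1 bar per library. The Krt7 share is 43.2% and 48.6% in the WT-labelled bars and 29.6% and 27.1% in the KO-labelled ones, and the blue basal shares shrink from 6.66% and 4.57% to 0.20% and 0.216%.

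Type I and type II transcripts were also compared within each library, where scaling does not enter. Over all keratins the ratio of type I to type II levels per kb was 0.447 and 0.383 in the WT-labelled libraries and 0.715 and 0.699 in the KO-labelled ones. For Krt18 against Krt8 alone it went from 0.572 and 0.638 to 0.905 and 0.843, a shift in the log2 ratio of counts of 0.53. Krt18 therefore rose more than Krt8 in both KO-labelled libraries. The shift had an exact two-sided permutation p = 0.333, the smallest that 2 libraries against 2 can give, so no pair could pass a threshold of 0.05 by this test. The log2 ratio of Krt19 to Krt8 was -1.35 and -1.63 against -1.61 and -1.82, with overlapping groups. That of Krt20 to Krt8 was -8.73 and -8.08 against -4.60 and -5.20.

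Among the basal chains, the log2 ratio of Krt14 to Krt5 was -1.20 and -1.27 (WT-labelled) against -0.52 and -1.22. The second KO-labelled library lay next to the WT-labelled ones, and without KO replicate 1 the shift of 0.36 was 0.01. The log2 ratio of Krt15 to Krt5 was -0.60 and -0.47 against -2.74 and -3.79, so Krt15 fell further than Krt5 in both. The 5 pairs had exact permutation p of 0.333 or 0.667, and of 0.556 or 0.667 after Benjamini-Hochberg adjustment over them.

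**Figure D5:**
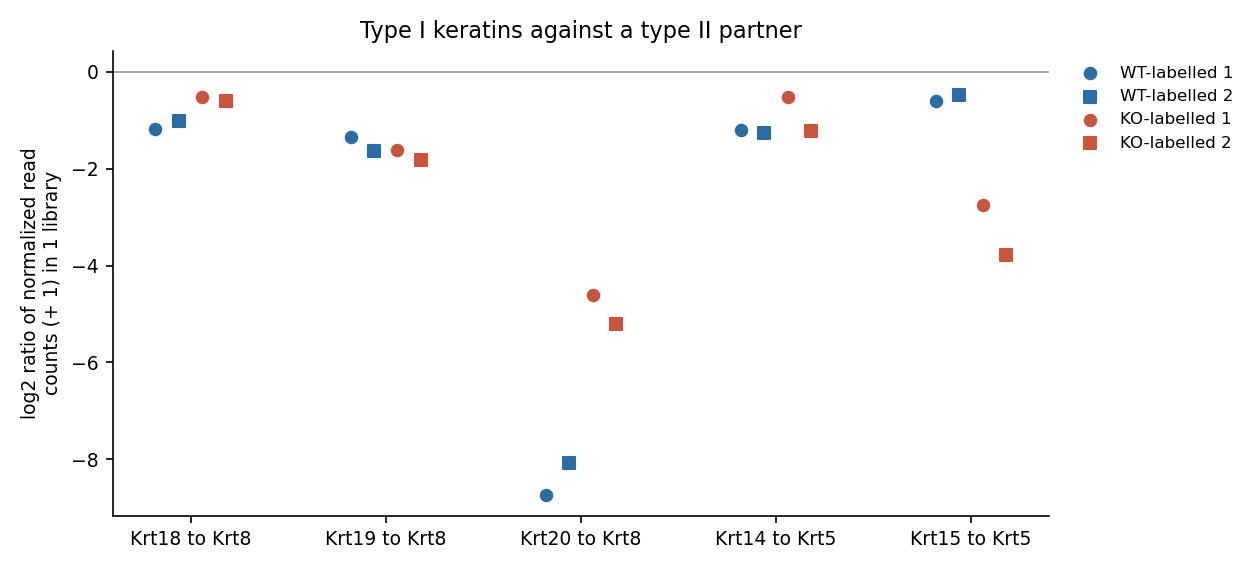
Log2 ratio of the normalized read counts (+ 1) of a type I keratin to a type II keratin in the same library, 1 point per library. Krt18 to Krt8 is higher in both KO-labelled libraries (-0.51 and -0.61 against -1.17 and -1.02), Krt15 to Krt5 is lower, and Krt14 to Krt5 differs between the KO-labelled libraries.

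Markers of the urothelium moved with the basal keratins. Of 16 listed urothelial genes, none of them a keratin and none without reads, 10 fell, 1 rose and 5 were not called. Among all tested genes 24.9% were called lower and 26.3% higher. The median over the 16 urothelial genes was -1.37. Their summed counts were 18623 and 20711 (WT-labelled) against 25584 and 19268, sums that include Cldn4, a tight junction gene of ducts as well, which rose from 2926 ± 374 to 17827 ± 4309 (SD, n = 2). The uroplakins, plaque proteins of umbrella cells, summed to 3440 and 3648 against 1380 and 909, and 5 of 6 fell. Of these sums Upk3b, which is also on the mesothelial list below, gave 1502 and 1928 against 777 and 560. The sums are thus not of umbrella cells alone. Upk1a and Upk3a had log2 differences of -1.83 and -2.83, Psca, a urothelial surface protein, -3.45 and Aqp3, a water channel also of principal cells, -2.93. Krt20 rose while the umbrella cell genes Upk1a and Upk3a fell. Trp63, the transcription factor of basal cells, had counts of 156 and 245 against 184 and 175, a log2 difference of -0.12 (95% interval -0.70 to 0.47, limma adjusted p = 0.713). The part of urothelial content in the fall of Krt5, Krt14 and Krt15 was not tested.

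Most tubule markers went against the simple-epithelial keratins. Of 20 medullary tubule genes 15 fell, 1 rose and 4 were not called (median -1.43), with summed counts of 698849 and 755382 against 405177 and 303808. Counts of calls in this paragraph stand beside 24.9% of all tested genes called lower and 26.3% called higher. Egf, Slc4a1, Aqp3 and Foxi1 had log2 differences of -6.43, -5.75, -2.93 and -2.06, while Epcam and Cdh1, genes of epithelial adhesion, had 0.22 and -0.11 and did not pass the threshold. Umod, a large part of the summed counts, was not called either. It was at 136828 and 143709 against 203680 and 138033 (log2 difference 0.26, limma adjusted p = 0.294). Slc12a1, also a large part of these sums, fell from 239881 and 241824 to 39222 and 28751 (log2 difference -2.84, limma adjusted p = 2.63e-05). Tubule injury genes moved with Krt8, Krt18, Krt19 and Krt20: 19 of 20 rose (median 1.82), with sums of 85770 and 90464 against 653151 and 552249, and Timp1, Clu, Lcn2 and Vcam1 had log2 differences of 5.61, 4.28, 5.82 and 2.92. That injury list holds no keratin, and of its sums Spp1 gave 43049 and 46830 against 427510 and 366760. In the KO-labelled libraries all 12 macrophage genes rose (sums of 19440 and 15693 against 71330 and 65889), among them C1qa, Lyz2, C1qc and Mrc1 by log2 differences of 2.67, 2.94, 2.46 and 2.13. Of 12 stromal and smooth muscle genes 8 rose and 4 were not called (201252 and 211849 against 507828 and 588592). Col1a1, Col3a1, Tagln and Lum were at 2.59, 1.61, 2.16 and 1.83. Those not called were Pdgfra, Pdgfrb, Dcn and Des, at -0.10, 0.14, 0.33 and 0.09. Of the sums Col3a1 gave 93785 and 92680 against 261051 and 308699. No gene of these lists was without reads, and their part in the keratin values was not tested.

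Other epithelia that could be dissected along were read too, against the 26.3% of all tested genes called higher and the 24.9% called lower. Of 8 mesothelial genes 5 were tested, of which 1, the member Krt19, rose and 1, Upk3b, fell by 1.37 on the log2 scale. The other 3 did not pass the threshold, with Gpm6a at 0.61 and Msln at -0.31. The sums were 8098 and 6896 against 9947 and 10612. They include Krt19, which gave 1809 and 1474 against 4337 and 3480, so they are not independent of the members. Of 10 epidermal genes 6 were tested; Dmkn fell by 1.42 on the log2 scale, 5 were not called, with Ivl at -1.38, and Krtdap had no reads. Their sums, which include Krt1 and Krt10, were 543 and 603 against 468 and 395. Of 11 genes of parietal and papillary surface epithelium 4 rose and 4 fell, with sums of 59265 and 59447 against 79264 and 76636; Cldn1, Prom1 and Ncam1 had log2 differences of 1.97, 1.38 and 1.08, and Mecom had -0.95.

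Among the lists of keratin-related genes, counts of calls are read against the 26.3% of all tested genes called higher and the 24.9% called lower. Of 20 genes of desmosomes, hemidesmosomes and plakins, which hold keratin filaments to junctions, 18 were tested, 7 rose and 3 fell, not far from those shares, with a median log2 difference of 0.34. Dsg2 and Dsc2, the desmosomal cadherins of simple epithelia, rose 3.16-fold and 2.37-fold, reaching 3509 ± 97.9 and 1188 ± 49.2 (SD, n = 2). Itgb4, the integrin chain of hemidesmosomes, rose 2.40-fold, while Dst, which encodes the linker dystonin, fell 2.18-fold. Dsp, desmoplakin, the plakin to which keratins attach, had counts of 9243 and 9916 against 11532 and 9949 (log2 difference 0.16, limma adjusted p = 0.196). Dsg3 and Dsc3, desmosomal cadherins of stratified epithelia, were too low to test.

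Of 16 other intermediate filament genes 13 were tested, 6 rose and none fell, with a median log2 difference of 0.67. Among all tested genes 26.3% were called higher and 24.9% lower. Vim, vimentin, the filament of mesenchymal and many injured cells, had counts of 6079 and 5472 against 15706 and 16760 and rose 2.81-fold, close to the 2.79-fold of Krt8. Lmna and Lmnb1, which encode nuclear lamins, had log2 differences of 1.19 and 0.67, and Sync 1.94. Another lamin gene, Lmnb2, had 0.15 and was not called. Of the 12 stromal and smooth muscle genes 8 rose in the same libraries, as given above, and the cells in which Vim rose were not measured.

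Of 25 genes listed under keratin binding and turnover 24 were tested, 7 rose and 5 fell (median 0.07), close to the 26.3% and 24.9% of all tested genes. The 7 include Krtcap2 and Krtcap3, at log2 differences of 0.55 and 0.77, for which no action on keratins is shown here. Sfn, the 14-3-3 sigma protein of epithelia, rose 3.81-fold to 1400 ± 382 (SD, n = 2), and the transglutaminase genes Tgm1 and Tgm2 had log2 differences of 1.58 and 0.76. Trim29, a gene of basal epithelial cells, fell from 205 and 202 to 49.3 and 36.7, a log2 difference of -2.23 (limma adjusted p = 0.000417). A list of 26 genes held epithelial transcription factors and the splicing regulators Esrp1 and Esrp2. Of these 26 genes 23 were tested, 5 rose and 9 fell (median -0.12), where all tested genes had 26.3% higher and 24.9% lower. Sox9, a factor of regenerating tubules, went from 41.4 and 45.7 to 1339 and 850, and Tfap2a, a factor of surface ectoderm, rose 4.59-fold while its relative Tfap2b fell 2.85-fold. Esrp2, a splicing regulator of epithelia, fell 2.42-fold while its relative Esrp1 rose 1.36-fold. These lists, like the members, were chosen with earlier results of the same libraries known.

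Krt18 and Krt5 were compared with 13525 tested genes of a mean of at least 50 by the Euclidean distance between their log2 counts in the 4 libraries, each less its own mean. The nearest to Krt18 were P2ry6, Serpina1a and Cdh3, at distances of 0.0796, 0.0947 and 0.0961 log2 units; Cdh3, which encodes P-cadherin, had a log2 difference of 2.05. Serpina1a has close copies among which its reads could be split. The nearest to Krt5 were Fabp4, Synpo2l and Ednrb, at 0.242, 0.292 and 0.350; Fabp4, a fatty acid carrier of fat and endothelial cells, had -3.09. With 4 libraries in 2 groups, such likeness is close to having the same log2 difference.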

How the data were processed

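The measurements are mRNA sequencing of 2 WT-labelled and 2 KO-labelled kidney medulla libraries; per the labels' protocols, RNA was isolated from the medulla at postnatal day 14 with a Qiagen kit. Each deposited number is a signal, a read count that the authors scaled by a factor of its library; this is read from the values, 100% of which became whole (within 0.001) after division by the step of their column. The tools, per the submitters' processing notes, were DESeq2 (2.11.40.7), featureCounts (2.0.1), HISAT2 (2.2.1) and fastp (0.20.1), and the builds mm10 and GRCm38. Annotation, strand setting and treatment of reads with several matches: not given in the sources used here.

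Symbols and coordinates came from a RefSeq table of GRCm38.p6 (25275 of 27179 IDs matched), sequences from RefSeq (GRCm38.p6), and transcript lengths from the principal GENCODE M21 model within the RefSeq gene span. Genes were tested two-sided on log2(value + 1) by limma (version 3.58.1; R 4.3.3), its variance prior following a trend, for 16253 genes with a mean of at least 10, adjusted by Benjamini-Hochberg over all of them with a threshold of 0.05. The log2(value + 1) scale understates changes of low genes; folds are ratios of group means. The 95% intervals are not adjusted. Library depth was 36482238 to 40784436 recovered reads, and floors of 3 reads cover counting error only. Replicates differed beyond sampling noise (chi-square per degree of freedom 23.4 and 17.7), so no library was a copy.

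The members, gene lists and motifs were chosen with earlier results of these data known. Named genes were all members, other keratins that were tested, up to 4 genes per list with the smallest adjusted p, and the 3 nearest to Krt18 and to Krt5. Cdh1, Epcam, Umod and Slc12a1 as tubule markers, Upk3a, Pdgfra, Pdgfrb, Dcn, Des, Lmnb2, Esrp1, Dsp, Dsg3, Dsc3, Trp63 and Krt16 were added after their values were seen. The same holds for Cdh16, Spp1, Krtcap2, Krtcap3, and Krt12 and Krt42 as neighbours. So were the keratin pool and the gene order. Scripts were tested on simulated data. The alternatives changed the pseudocount, the filter, the scaling or the variance prior, or used edgeR 4.0.16 and DESeq2 1.42.0 on recovered reads, a replicate block, or 1 library fewer.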

Additional observations from a re-analysis of the deposited data

How the results depend on the processing

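Krt8, Krt18, Krt19, Krt20, Krt5, Krt14, Krt15, Krt17 and Krt80 kept their direction and passed the threshold in all 16 alternatives, with log2 differences of 1.42 to 1.53, 1.90 to 2.11, 1.09 to 1.41, 4.62 to 5.34, -3.51 to -3.02, -3.18 to -2.63, -6.41 to -5.29, 4.48 to 5.38 and 0.87 to 1.40. Krt7 ranged from 0.15 to 0.53 and Krt23 from 0.07 to 0.55. Among the other keratin genes the count higher was 5 with no filter on low values, where Krt12, Krt42 and Krt76, at 22.5 or less in every library, joined Krt17 and Krt80. The count lower, which is Krt4 alone, was 0 with a filter at a mean of 50, which leaves Krt4 out, and 0 with DESeq2, and ranged from 0 to 1 when each library was left out; the cause of the latter changes was not tested. Fits without a library take the spread of its group from the other one. The replicate numbers did not pair the libraries (correlation of the replicate differences across 16253 genes -0.0564). With a replicate block 3810 genes were higher and 3619 lower, against 4277 and 4051, and the keratin counts were the same. Depth limits Krt13 and the untested keratins.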
